A study of Mus musculus with 18 samples.

Results

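The transcripts described here are 49 genes of the interferon response, which comprise the receptors, the signalling factors, cytosolic sensors of foreign nucleic acid and the effector genes that interferons switch on. A gene was taken where the platform annotation gave its symbol, alone, to a transcript cluster of the deposited table, and the brightest cluster stood for a gene with several. By this rule 44 of the 49 genes were measured, among 19938 genes in all. Ifi44 had no cluster of its own, and Isg15, Gbp2, Igtp and Irgm2 were annotated only on clusters shared with another gene, so that these 5 are not described. The 44 fall by role into 4 receptor chains, 8 signalling factors, 4 nucleic acid sensors, 23 targets usually described as type I interferon targets and 5 usually described as interferon-gamma targets.

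RNA came from lymphatic endothelial cells (LEC), which line lymphatic vessels, and blood vascular endothelial cells (BEC), which line blood vessels, of mouse embryos of 3 ages, which are written in embryonic days as E14.5, E16.5 and E18.5. Each of the 6 groups (LEC of each age and BEC of each age) held 3 arrays, 1 per litter, with LEC and BEC of an age taken from matching litters, 18 Affymetrix Mouse Gene 1.0 ST arrays in all. The labels give no strain, genotype or treatment, and they describe the isolation of the cells only with a reference to an earlier publication. The title places the series in a study of LEC identity and of an enhancer bound by the transcription factor GATA2.

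Type I interferons signal through the paired chains IFNAR1 and IFNAR2, interferon-gamma through IFNGR1 and IFNGR2, and both receptors act by JAK kinases that phosphorylate STAT proteins. Signals of the type I receptor reach the interferon-stimulated response element (ISRE) through a complex that holds STAT2 and IRF9, whereas those of the interferon-gamma receptor act mainly through the gamma-activated sequence (GAS) and through the factor IRF1, which is induced. Many targets answer to both kinds of interferon, so that the division into type I and interferon-gamma targets is one of emphasis. Many cells also keep a low, tonic level of these genes without infection, and endothelial cells respond readily to both kinds of interferon.

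Levels are log2 RMA values, so that a difference of 1 is a doubling, and levels of different genes cannot be set against each other because probes differ in brightness. Differences are LEC minus BEC, or later minus earlier age, each with its standard error from limma, and a gene was called where its Benjamini-Hochberg adjusted p over the 19938 genes was under 0.05. A level of 4.18, the 90th percentile of the mean levels of 1190 olfactory and vomeronasal receptor genes, was taken as a bound for dim genes. Where a group lay wholly below it, a fold is given as a lower bound ("at least"), with the dim arrays set to that level. Array medians ran from 5.434 to 5.582 and interquartile ranges from 3.182 to 3.641, and the lowest correlation of an array within its group was 0.976 to 0.991. The E18.5 arrays had interquartile ranges of 3.267 to 3.362 in LEC and 3.182 to 3.333 in BEC, narrower than every earlier array, and this difference goes with each change from E16.5 to E18.5 given here.

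Defining markers followed the labels: 5 of 5 measured LEC markers were higher in LEC and 6 of 6 BEC markers were lower in LEC over the 3 ages. Markers of other cells moved with the comparison too. The 12 macrophage markers were all higher in LEC over the 3 ages, with a median level per array of 6.12 to 6.49 at E14.5, 7.18 to 8.05 at E16.5 and 7.58 to 8.21 at E18.5 in LEC, against 4.87 to 5.04, 4.87 to 5.14 and 4.78 to 5.30 in BEC. The 6 mast cell markers were higher in LEC as well, and the 5 mural cell markers were lower, with a median level at E18.5 of 5.79 to 6.01 in LEC and 8.74 to 8.91 in BEC. Over the 3 ages 5 of 7 markers of all endothelium were lower in LEC (median difference -0.40), 4 of 4 keratinocyte markers were higher (0.86, and 1.74 at E18.5), 5 of 9 lymphocyte and leukocyte markers were higher and 1 lower (1.09), both erythroid markers were lower (-1.41), and 1 of 5 fibroblast markers was higher (-0.05). None of 5 plasmacytoid and dendritic cell markers was called between LEC and BEC at an age. The part of these markers' cells in the differences below was not tested, and in such bulk samples fewer cells of a type and less RNA per cell cannot be told apart.

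RefSeq promoters (build GRCm38.p6, 250 bases before to 50 after the annotated start) were given for 34 of the 44 measured members and were searched for 2 motifs. The ISRE was searched on both strands as 2 copies of GAAA with any 2 bases between them, and the GAS as TTCNNNGAA, which reads alike on both strands. An ISRE match was present for 14 of these 34 genes (41.2%), against 3.99% of 27025 genes with a promoter. By role, it was present for 4 of 4 interferon-gamma targets, 6 of 16 type I targets, 2 of 2 sensors, 2 of 8 signalling factors and 0 of 4 receptors. A GAS match was present for 12 of 34 members (35.3%), against 9.55% of all genes. It was found for 2 of 4 interferon-gamma targets, 4 of 16 type I targets, 1 of 2 sensors, 3 of 8 signalling factors and 2 of 4 receptors. These shares are descriptions of letters in a window and not of binding.

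The 8 promoters below belong to members whose levels are followed in the results and that hold at least 1 match. They are shown 5′ to 3′ on the gene's strand with the matches in capitals, where an ISRE match on the opposite strand reads as 2 copies of TTTC with 2 bases between, and capitals that run on mark matches that overlap. In Irf1 (chr11:53769764-53770063, plus strand) the capitals are a GAS match 90 bases before the start and no ISRE match was found. In Ifit1 (chr19:34640639-34640938, plus strand) they are 2 ISRE matches, in Rsad2 (chr12:26456403-26456702, minus strand) 1, and in Bst2 (chr8:71537423-71537722, minus strand) 2 overlapping ISRE matches that a GAS match overlaps in turn. The remaining 4 belong to interferon-gamma targets: Irgm1 (chr11:48871371-48871670, minus strand) and Gbp3 (chr3:142559794-142560093, plus strand) hold 2 overlapping ISRE matches each, and Gbp5 (chr3:142496684-142496983, plus strand) and Gbp7 (chr3:142530086-142530385, plus strand) hold 1 ISRE and 2 GAS matches each. A second promoter of Irf1 (chr11:53770223-53770522) and one of Gbp3 (chr3:142560106-142560405) held no match of either motif and are not shown. Further members with a match are not shown either.
Irf1: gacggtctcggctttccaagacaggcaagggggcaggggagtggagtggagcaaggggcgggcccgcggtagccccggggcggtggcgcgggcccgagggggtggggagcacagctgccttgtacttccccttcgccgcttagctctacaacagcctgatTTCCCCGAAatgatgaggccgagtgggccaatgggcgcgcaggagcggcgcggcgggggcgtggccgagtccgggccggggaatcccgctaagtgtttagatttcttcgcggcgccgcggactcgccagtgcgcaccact
Ifit1: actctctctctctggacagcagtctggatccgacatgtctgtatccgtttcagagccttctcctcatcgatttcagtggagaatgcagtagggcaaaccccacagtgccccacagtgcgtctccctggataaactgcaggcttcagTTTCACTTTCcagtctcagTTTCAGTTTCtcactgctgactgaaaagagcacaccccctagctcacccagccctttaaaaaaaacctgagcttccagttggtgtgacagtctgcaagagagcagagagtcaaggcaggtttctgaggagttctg
Rsad2: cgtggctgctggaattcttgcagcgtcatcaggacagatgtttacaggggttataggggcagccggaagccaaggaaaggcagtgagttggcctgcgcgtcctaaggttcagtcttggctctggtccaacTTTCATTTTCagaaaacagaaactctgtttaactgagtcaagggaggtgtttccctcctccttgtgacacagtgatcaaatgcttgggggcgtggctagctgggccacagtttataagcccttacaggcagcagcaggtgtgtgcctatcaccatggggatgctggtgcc
Bst2: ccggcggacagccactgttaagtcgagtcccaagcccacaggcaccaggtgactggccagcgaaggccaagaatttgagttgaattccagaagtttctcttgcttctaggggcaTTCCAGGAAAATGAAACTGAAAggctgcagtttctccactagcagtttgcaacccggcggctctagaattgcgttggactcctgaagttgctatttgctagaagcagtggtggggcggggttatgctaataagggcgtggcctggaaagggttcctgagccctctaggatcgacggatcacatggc
Irgm1: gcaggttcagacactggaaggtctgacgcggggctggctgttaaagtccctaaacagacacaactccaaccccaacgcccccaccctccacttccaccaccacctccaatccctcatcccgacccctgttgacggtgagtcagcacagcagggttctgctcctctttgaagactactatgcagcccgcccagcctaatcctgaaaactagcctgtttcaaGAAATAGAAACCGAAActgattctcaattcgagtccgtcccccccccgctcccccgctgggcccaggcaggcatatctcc
Gbp3: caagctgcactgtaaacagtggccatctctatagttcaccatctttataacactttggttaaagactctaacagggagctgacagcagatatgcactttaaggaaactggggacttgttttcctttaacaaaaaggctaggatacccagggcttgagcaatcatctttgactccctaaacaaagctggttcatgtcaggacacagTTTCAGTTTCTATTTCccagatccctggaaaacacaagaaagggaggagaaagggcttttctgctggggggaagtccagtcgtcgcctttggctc
Gbp5: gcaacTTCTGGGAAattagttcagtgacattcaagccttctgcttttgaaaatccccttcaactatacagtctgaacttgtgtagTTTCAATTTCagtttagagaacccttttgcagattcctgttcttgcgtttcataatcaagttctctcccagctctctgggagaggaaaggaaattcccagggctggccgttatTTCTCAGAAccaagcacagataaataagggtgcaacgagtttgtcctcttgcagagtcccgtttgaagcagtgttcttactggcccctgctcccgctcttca
Gbp7: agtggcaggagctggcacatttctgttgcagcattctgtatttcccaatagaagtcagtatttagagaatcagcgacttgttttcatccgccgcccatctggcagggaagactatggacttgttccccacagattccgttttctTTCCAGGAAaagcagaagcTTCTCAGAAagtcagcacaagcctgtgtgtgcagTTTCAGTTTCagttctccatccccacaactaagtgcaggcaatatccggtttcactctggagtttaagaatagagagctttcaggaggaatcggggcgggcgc

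LEC were first compared with BEC at each age, the comparison the design states. Interferon response genes were more often called lower than higher in LEC at each age. The number called grew with age, as it did over all genes. At E14.5, 19 of the 44 members were lower in LEC and 1 was higher, while 16.5% of all genes were called, 7.94% lower and 8.6% higher. At E16.5, 23 were lower and 4 higher, against 25.2% of all genes called, 12.2% lower and 13% higher. At E18.5, 31 were lower and 6 higher, against 30.4% of all genes called, 15.9% lower and 14.6% higher. The median difference over the members was -0.45 at E14.5, then -0.39 at E16.5 and -0.95 at E18.5, while the median over all genes was -0.03, 0 and -0.04.

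Over the mean of the 3 ages 32 members were lower in LEC and 6 higher, against 37.1% of all genes called (19% lower and 18.2% higher), with a median of -0.58 over the members and -0.02 over all genes. At all 3 ages 18 members were called lower in LEC, a pattern that 5.62% of all genes met, and 1 member, Irf5, was called higher at all 3 ages, which 5.83% of all genes were. The 18 were Ifnar1, Ifngr1, Irf1, Irf9, Dhx58, Irgm1, Gbp3 and 11 type I targets. No member was called in opposite directions at different ages. By role, the median difference at E18.5 was -1.71 over the 5 interferon-gamma targets, -1.28 over the 23 type I targets, -0.53 over the receptors, -0.50 over the sensors and -0.21 over the signalling factors.

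**Figure D1:**
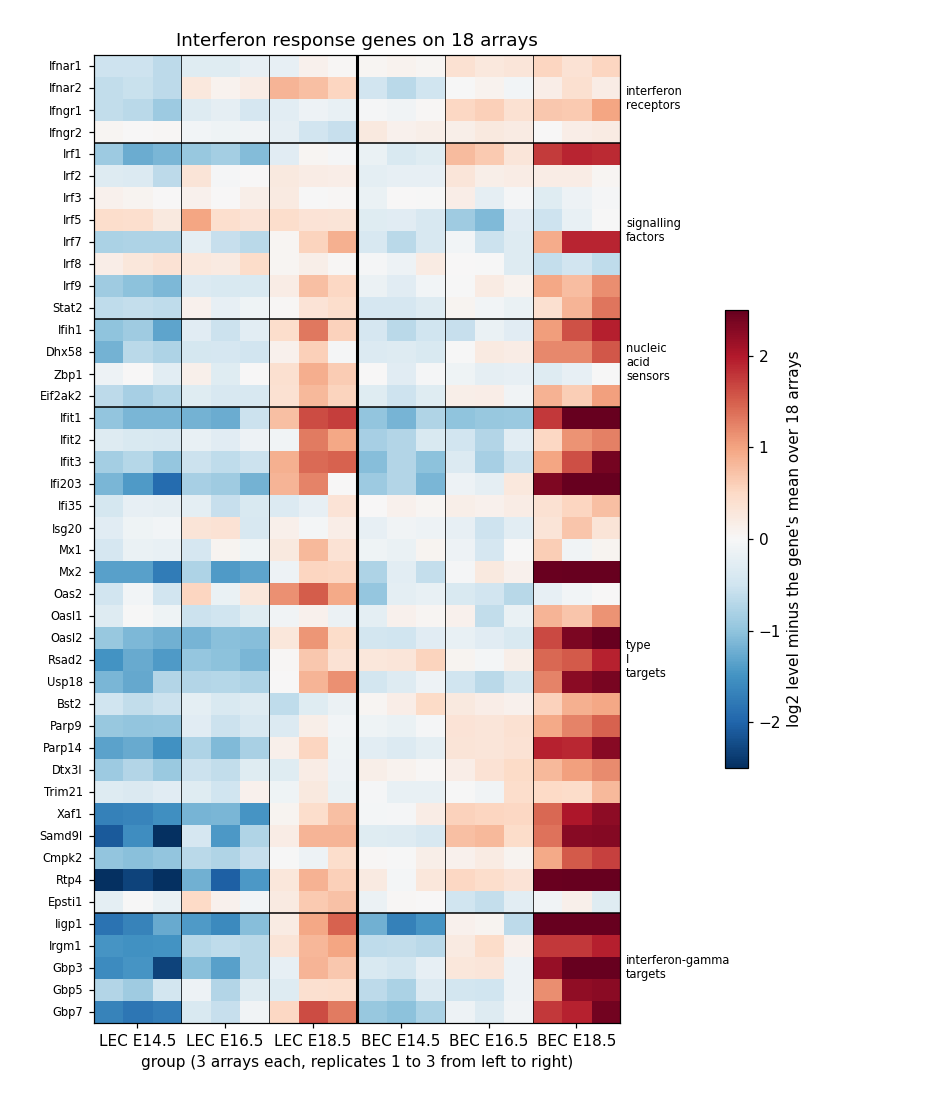
Log2 level of each measured interferon response gene (rows, grouped by role) on each of the 18 arrays (columns, LEC left of BEC), minus the gene's mean over all arrays; values past the ends of the scale have the end colours. The E18.5 arrays are the darkest red for most type I and interferon-gamma targets in BEC, and less so in LEC.

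Of the receptor chains, Ifnar1, Ifngr1 and Ifngr2 were lower in LEC and Ifnar2 was higher at E18.5, with a median difference of -0.53 over the 4 chains against -1.28 over the type I targets. At E14.5 and E16.5 the differences of Ifnar1 were of the size of the type I median (-0.68 and -0.55). Those of Ifngr1 were -0.7 and -0.82, beside medians of -0.81 and -0.94 over the interferon-gamma targets. Ifnar1, the chain that TYK2 binds, had levels of 8.69, 8.68 and 8.55 in LEC at E14.5, against 9.24, 9.29 and 9.24 in BEC. At E16.5 its levels were 8.89, 8.89 and 9.0 in LEC and 9.58, 9.47 and 9.5 in BEC, and at E18.5 8.99, 9.31 and 9.23 in LEC and 9.73, 9.56 and 9.73 in BEC. The cell types did not overlap at any age. The differences were -0.62 ± 0.10 (adjusted p = 0.00011), -0.59 ± 0.10 (0.00011) and -0.49 ± 0.10 (0.00067) in order of age.

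Ifngr1, which binds interferon-gamma, read 8.08, 8.02 and 7.79 in LEC and 8.66, 8.61 and 8.71 in BEC at E14.5. At E16.5 it read 8.37, 8.46 and 8.27 in LEC, against 9.21, 9.28 and 9.07 in BEC, and at E18.5 8.42, 8.57 and 8.5 in LEC, against 9.36, 9.35 and 9.67 in BEC. Every BEC array of an age was above every LEC array, with differences in order of age of -0.70 ± 0.11, -0.82 ± 0.11 and -0.96 ± 0.11 (adjusted p = 9e-05, 8.4e-06 and 1.1e-06).

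Ifngr2, the chain that carries JAK2, was not called at E14.5, with 9.02, 8.99 and 9.0 in LEC and 9.21, 9.08 and 9.12 in BEC (-0.13 ± 0.10, adjusted p = 0.49). At E16.5 it read 8.91, 8.87 and 8.88 in LEC and 9.11, 9.22 and 9.17 in BEC (-0.28 ± 0.10, adjusted p = 0.04), a call that 12 of 29 alternatives lost, 11 of which used fewer arrays or a fixed replicate block. At E18.5 it read 8.74, 8.49 and 8.39 in LEC, all below the 8.98, 9.13 and 9.18 in BEC (-0.56 ± 0.10, adjusted p = 0.00017). Ifngr2 was the only member called lower in LEC at E18.5 than in LEC at E16.5 (-0.35 ± 0.10, adjusted p = 0.01), a call lost without LEC E18.5 replicate 3 (adjusted p = 0.055) or with only the groups compared in the fit (0.085).

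Ifnar2, the other chain of the type I receptor, ran the other way. Its levels were 8.26, 8.31 and 8.22 in LEC and 8.39, 8.19 and 8.37 in BEC at E14.5, which overlapped. They were 9.13, 8.96 and 9.06 in LEC, against 8.85, 8.96 and 8.8 in BEC, at E16.5, and 9.72, 9.61 and 9.41 in LEC, against 9.03, 9.26 and 9.06 in BEC, at E18.5. The groups met at 8.96 at E16.5 and were not called (0.18 ± 0.10, adjusted p = 0.25) and were called at E18.5 (0.46 ± 0.10, adjusted p = 0.0018; 0.054 with only the groups compared in the fit). Ifnar2 rose at each step in LEC, by 0.79 ± 0.10 and then by 0.53 ± 0.10, and in BEC at the earlier step only (0.56 ± 0.10, adjusted p = 0.0022; then 0.24 ± 0.10, adjusted p = 0.078).

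Among the signalling factors, Irf1 differed most at E16.5 and E18.5, and Irf9 and Irf1 at E14.5. Irf1 is induced by interferon-gamma through a GAS and activates many of the targets below. At E14.5 it read 8.21, 7.87 and 7.96 in LEC and 8.95, 8.74 and 8.81 in BEC, at E16.5 8.17, 8.27 and 8.03 in LEC and 9.9, 9.76 and 9.41 in BEC, and at E18.5 8.83, 9.16 and 9.08 in LEC and 10.86, 11.01 and 10.98 in BEC. At no age did the cell types overlap, and the gap was -0.82 ± 0.13, -1.53 ± 0.13 and -1.93 ± 0.13 in order of age (adjusted p = 0.00011, 2.3e-08 and 9.3e-10). At E18.5 this was 3.8-fold lower in LEC. A dimmer cluster of Irf1, with a mean of 5.82 against 9.11, pointed the same way at each age, with differences of -0.16, -0.46 and -1.04.

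Irf9, the DNA-binding part of the type I complex, read 6.62, 6.49 and 6.39 in LEC and 7.37, 7.23 and 7.45 in BEC at E14.5, and 7.17, 7.13 and 7.14 in LEC and 7.5, 7.71 and 7.59 in BEC at E16.5. At E18.5 it read 7.69, 8.26 and 8.03 in LEC, just below the 8.48, 8.28 and 8.67 in BEC. The differences were -0.85 ± 0.13, -0.45 ± 0.13 and -0.48 ± 0.13 (adjusted p = 7.2e-05, 0.014 and 0.0086), and the call at E18.5 was lost with only the groups compared in the fit (0.089) or without LEC E18.5 replicate 1 (0.054), that at E16.5 without BEC E16.5 replicate 2 (0.066). Stat2, its partner, was called at E18.5 alone (-0.60 ± 0.17, adjusted p = 0.01), where 7.63, 7.95 and 8.04 in LEC overlapped 8.01, 8.46 and 8.95 in BEC. The call was lost with only the groups compared in the fit (0.084), without LEC E18.5 replicate 1 (0.056) or without BEC E18.5 replicate 3, which left -0.36 (0.071).

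Irf7, which amplifies the production of type I interferon, was not called at the earlier ages (-0.28 ± 0.23 at E14.5 and -0.20 ± 0.23 at E16.5, adjusted p = 0.54 and 0.63). At E18.5 it read 6.32, 6.82 and 7.16 in LEC and 7.19, 8.16 and 8.16 in BEC, where the highest LEC array lay just under the lowest BEC array (-1.07 ± 0.23, adjusted p = 0.0012). Irf5 and Irf8, both factors of myeloid cells, were higher in LEC. Macrophage markers were higher in LEC as given above, and their part in the levels of Irf5 and Irf8 was not tested. Irf5 read 6.39, 6.36 and 6.19 in LEC and 5.65, 5.67 and 5.55 in BEC at E14.5, 6.93, 6.36 and 6.29 in LEC and 5.06, 4.84 and 5.66 in BEC at E16.5, and 6.39, 6.29 and 6.27 in LEC and 5.42, 5.76 and 5.93 in BEC at E18.5. It stood apart at each age, with differences of 0.69 ± 0.19, 1.34 ± 0.19 and 0.61 ± 0.19 (adjusted p = 0.013, 1.3e-05 and 0.018). The call at E14.5 was lost without LEC replicate 1 or BEC replicate 3 of that age (0.053 each). That at E18.5 was lost without replicate 1 of LEC (0.052), of BEC (0.092) or of both (0.17), and with array weights (0.13). Irf8, which sets the monocyte and dendritic lineage, was called at E16.5 (0.43 ± 0.11; lost without replicate 3 of LEC or BEC, 0.051 and 0.064) and at E18.5, where 6.33, 6.42 and 6.31 in LEC stood above 5.68, 5.81 and 5.65 in BEC (0.64 ± 0.11, adjusted p = 0.00022). Irf2, an antagonist of Irf1, and Irf3, the factor activated by the sensors, were called at no age.

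**Figure D2:**
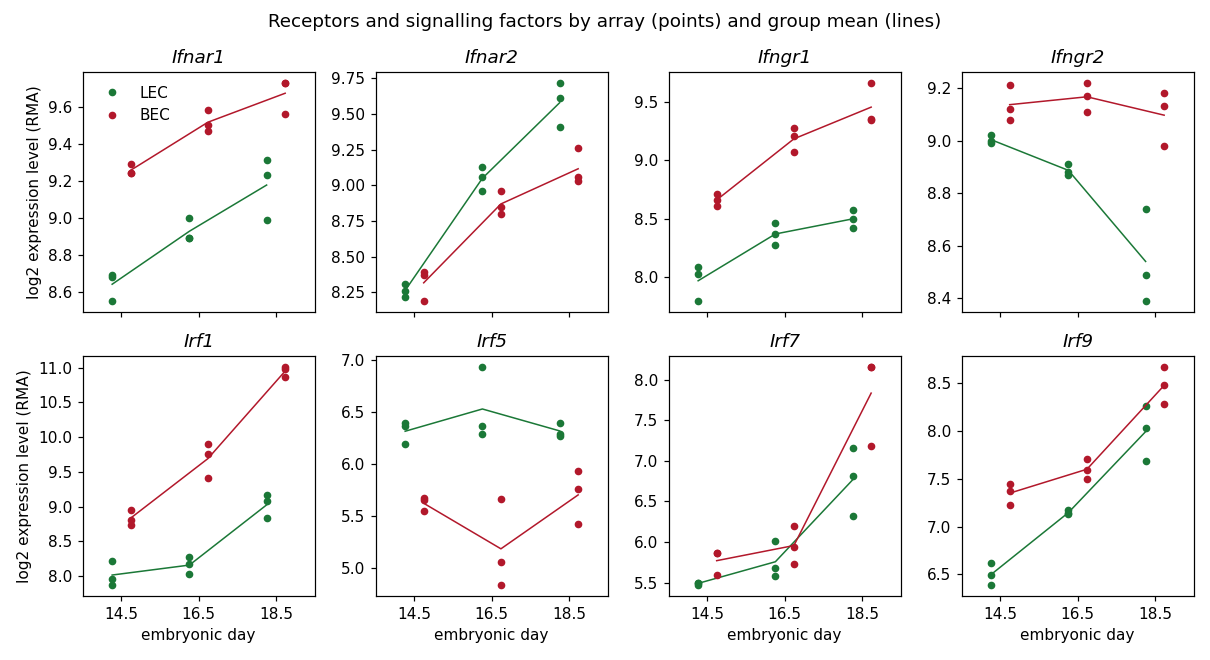
Log2 level of 4 receptor chains and 4 signalling factors on each array (points) and their group means (lines) by embryonic day, in LEC (green) and BEC (red). Ifnar1, Ifngr1, Irf1 and Irf9 lie lower in LEC at each age, Irf5 lies higher, and the Irf1 gap widens to -1.93 at E18.5.

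The nucleic acid sensors were split. Dhx58, a helicase that tunes the response to viral RNA, was lower in LEC at each age. It read 4.54, 5.05 and 4.95 in LEC and 5.39, 5.41 and 5.34 in BEC at E14.5, 5.28, 5.31 and 5.24 in LEC and 5.71, 5.94 and 5.9 in BEC at E16.5, and 5.83, 6.31 and 5.7 in LEC and 6.93, 6.93 and 7.27 in BEC at E18.5. The groups were apart at all 3 ages, by -0.53 ± 0.15, -0.58 ± 0.15 and -1.1 ± 0.15 (adjusted p = 0.018, 0.0073 and 1.2e-05), and the call at E14.5 was lost without LEC replicate 1 (0.14), BEC replicate 1 (0.051) or BEC replicate 2 (0.06) of that age. Ifih1, a sensor of long viral RNA, was called at E18.5 only (-0.75 ± 0.22, adjusted p = 0.012), where 6.05, 6.93 and 6.19 in LEC overlapped 6.66, 7.2 and 7.56 in BEC. The call was lost with only the groups compared in the fit (0.065) and without LEC replicate 1 or 3 (0.068 and 0.052) or BEC replicate 3 (0.078) of that age. Eif2ak2, the kinase that halts translation on double-stranded RNA, was called at E16.5 only (-0.45 ± 0.13, adjusted p = 0.012), with 7.36, 7.27 and 7.26 in LEC below 7.81, 7.84 and 7.58 in BEC (0.057 without BEC E16.5 replicate 2). Zbp1, a sensor of left-handed nucleic acid, was higher in LEC at E18.5, with 5.16, 5.67 and 5.39 in LEC and 4.44, 4.55 and 4.75 in BEC, which stood apart (0.83 ± 0.14, adjusted p = 0.00012).

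Of the 23 type I targets, 11 were called lower in LEC at all 3 ages: Rtp4, Xaf1, Samd9l, Rsad2, Parp14, Mx2, Cmpk2, Oasl2, Parp9, Dtx3l and Bst2. By age, 11, 13 and 17 were lower and 0, 2 and 2 higher. Rtp4, an antiviral protein that also escorts receptors to the cell surface, had the largest difference over the mean of the 3 ages (-2.3 ± 0.11, adjusted p = 2.8e-12). At E14.5 it read 4.07, 4.27 and 4.04 in LEC and 6.81, 6.55 and 6.88 in BEC, at E16.5 5.39, 4.55 and 5.16 in LEC and 7.1, 7.03 and 6.93 in BEC, and at E18.5 6.87, 7.45 and 7.18 in LEC and 9.07, 9.53 and 9.74 in BEC. The gap was -2.62 ± 0.20, -1.99 ± 0.20 and -2.28 ± 0.20, and the LEC arrays of E18.5 overlapped the BEC arrays of E16.5.

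Xaf1, which binds the apoptosis inhibitor XIAP, read 4.32, 4.36 and 4.49 in LEC and 5.97, 5.98 and 6.21 in BEC at E14.5, 4.85, 4.87 and 4.54 in LEC and 6.59, 6.55 and 6.54 in BEC at E16.5, and 6.09, 6.46 and 6.76 in LEC and 7.45, 8.03 and 8.26 in BEC at E18.5. It stood apart at each age (-1.67 ± 0.18, -1.81 ± 0.18 and -1.48 ± 0.18). Samd9l, an inhibitor of translation, read 4.66, 5.22 and 4.22 in LEC and 6.47, 6.45 and 6.37 in BEC at E14.5, 6.34, 5.34 and 6.01 in LEC and 7.52, 7.58 and 7.22 in BEC at E16.5, and 6.96, 7.61 and 7.62 in LEC and 8.13, 9.04 and 9.06 in BEC at E18.5. Its arrays were more scattered in LEC than in BEC at E14.5 and E16.5, and its differences were -1.73 ± 0.28, -1.54 ± 0.28 and -1.35 ± 0.28 (adjusted p = 0.00011, 0.00026 and 0.00091).

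Rsad2 (viperin), which makes a chain-terminating nucleotide, and Cmpk2, a nucleotide kinase encoded beside it, were lower in LEC at each age. Rsad2 read 4.54, 4.78 and 4.63 in LEC and 6.33, 6.34 and 6.6 in BEC at E14.5, 5.08, 5.02 and 4.9 in LEC and 6.11, 5.98 and 6.19 in BEC at E16.5, and 6.06, 6.72 and 6.4 in LEC and 7.47, 7.57 and 7.96 in BEC at E18.5. Its differences of -1.77 ± 0.15, -1.09 ± 0.15 and -1.28 ± 0.15 were each larger than the spread of the arrays (adjusted p = 4.3e-08, 1.3e-05 and 1.8e-06). Cmpk2 read 5.17, 5.11 and 5.17 in LEC and 6.18, 6.14 and 6.3 in BEC at E14.5, 5.49, 5.4 and 5.58 in LEC and 6.27, 6.37 and 6.23 in BEC at E16.5, and 6.14, 6.03 and 6.6 in LEC and 7.1, 7.69 and 7.87 in BEC at E18.5. It was apart at each age by -1.06 ± 0.16, -0.80 ± 0.16 and -1.3 ± 0.16.

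Parp14, Parp9 and Dtx3l, an ADP-ribosyl transferase, its relative and the ubiquitin ligase that pairs with Parp9, were lower in LEC together. Parp14 read 6.08, 6.16 and 5.92 in LEC and 7.16, 7.08 and 7.18 in BEC at E14.5, 6.66, 6.33 and 6.62 in LEC and 7.75, 7.72 and 7.79 in BEC at E16.5, and 7.55, 7.97 and 7.32 in LEC and 9.35, 9.32 and 9.7 in BEC at E18.5. Its 3 gaps were -1.09 ± 0.14, -1.22 ± 0.14 and -1.84 ± 0.14. Parp9 differed by -0.87 ± 0.13, -0.75 ± 0.13 and -1.3 ± 0.13, and Dtx3l by -0.95 ± 0.13, -0.83 ± 0.13 and -1.08 ± 0.13. For these genes too every LEC array lay below every BEC array of its age.

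Mx2, a cytoplasmic antiviral GTPase, was below the dim bound on all LEC arrays at E14.5 (3.41, 3.41 and 3.02) and E16.5 (3.99, 3.35 and 3.44), against 4.0, 4.5 and 4.17 and 4.73, 5.0 and 4.87 in BEC, which makes LEC lower by at least 1.03-fold at the first age (adjusted p = 0.0044), with 1 of 3 BEC arrays above the bound, and by at least 1.61-fold at the next (0.00018). At E18.5 it read 4.63, 5.29 and 5.28 in LEC and 7.24, 7.34 and 8.05 in BEC, and this gap of -2.48 ± 0.22 (adjusted p = 3.9e-08, 5.58-fold) was the largest of a type I target at that age. Oasl2, an oligoadenylate synthetase relative, read 6.82, 7.65 and 7.0 in LEC and 8.19, 8.9 and 9.3 in BEC at E18.5 (-1.64 ± 0.21). Its earlier differences were -0.68 ± 0.21 and -0.81 ± 0.21, and leaving out each of the 6 arrays of E14.5 in turn lost the call at that age (adjusted p = 0.052 to 0.13). Bst2 (tetherin), which holds virus at the cell surface, read 8.33, 8.21 and 8.29 in LEC and 8.88, 9.0 and 9.31 in BEC at E14.5, 8.58, 8.45 and 8.51 in LEC and 9.06, 8.99 and 8.93 in BEC at E16.5, and 8.18, 8.52 and 8.68 in LEC and 9.41, 9.72 and 9.79 in BEC at E18.5. It was apart at each age by -0.79 ± 0.13, -0.48 ± 0.13 and -1.18 ± 0.13.

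The next type I targets were called at E16.5 and E18.5 or at E18.5 only. Of these, Usp18, Ifi35 and Trim21 did not overlap at E14.5 either, without a call. Ifi203, of the DNA-binding PYHIN family, was called at E16.5 (-0.93 ± 0.28, adjusted p = 0.017; 0.073 and 0.082 without replicate 3 of LEC or BEC) and at E18.5, with 6.78, 7.17 and 5.94 in LEC and 8.27, 8.42 and 9.24 in BEC, which stood far apart (-2.01 ± 0.28, adjusted p = 1.2e-05). Ifi35 followed the same course with smaller differences (-0.55 ± 0.15 and -0.63 ± 0.15; the earlier call was lost without LEC E16.5 replicate 2, 0.053). Ifit1, which binds foreign RNA caps, was below the dim bound on all arrays of both cell types at E14.5 and E16.5, and at E18.5 read 5.41, 6.29 and 6.39 in LEC and 6.44, 7.43 and 8.05 in BEC. The groups did not overlap then (-1.28 ± 0.30, adjusted p = 0.003). Usp18, the protease that removes ISG15 and damps the type I receptor, read 5.81, 6.65 and 6.94 in LEC and 7.05, 8.06 and 8.17 in BEC at E18.5 (-1.29 ± 0.26, adjusted p = 0.00075), after differences of -0.75 ± 0.26 and -0.20 ± 0.26 that were not called. Oasl1 (-0.93 ± 0.16) and Trim21 (-0.61 ± 0.16) were also called at E18.5 only.

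Not every type I target was lower in LEC. Ifit2 (-0.24 ± 0.25 at E18.5, adjusted p = 0.53), Ifit3 (-0.40 ± 0.24, 0.24), Isg20 (-0.37 ± 0.16, 0.098) and Mx1 (0.28 ± 0.18, 0.28) were called at no age, and Mx1 was below the dim bound on all 18 arrays. Ifit3 read 5.79, 6.32 and 6.37 in LEC and 5.88, 6.51 and 7.29 in BEC at E18.5, where the groups overlapped. Oas2, an oligoadenylate synthetase, was higher in LEC at E18.5, with 6.1, 6.46 and 5.91 in LEC and 4.74, 4.88 and 4.96 in BEC (1.3 ± 0.20, adjusted p = 5.7e-05), and at E16.5 (0.73 ± 0.20, adjusted p = 0.011; 0.074 without LEC replicate 1 and 0.052 without BEC replicate 3). Epsti1 was higher by at least 1.26-fold at E16.5 (adjusted p = 0.0046), where all BEC arrays lay below the bound, and by 0.63 ± 0.16 at E18.5, with 4.55, 4.99 and 5.06 in LEC and 4.23, 4.46 and 4.02 in BEC at the later age. The macrophage markers were higher in LEC too, 7 of 12 at E14.5 and 12 of 12 at E16.5. At E18.5 their median level per array was 7.58 to 8.21 in LEC and 4.78 to 5.3 in BEC. Zbp1 was called higher in LEC at E18.5 and at neither earlier age, with means of 4.7 in LEC and 4.58 in BEC at E16.5. The part of macrophages in the levels of Oas2, Epsti1, Irf5, Irf8 and Zbp1 was not tested.

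All 5 measured interferon-gamma targets were lower in LEC at E18.5, and 3 of 5 at each earlier age. They are GTPases that attack the vacuoles of intracellular microbes, the guanylate-binding proteins Gbp3, Gbp5 and Gbp7 and the immunity-related GTPases Iigp1 and Irgm1. Members of these families, like the Ifit, Oas and PYHIN genes, resemble each other closely, so that a probe of one may bind another. Gbp3 read 5.04, 5.14 and 4.3 in LEC and 6.23, 6.16 and 6.42 in BEC at E14.5, 5.58, 5.25 and 5.93 in LEC and 6.9, 6.92 and 6.48 in BEC at E16.5, and 6.42, 7.46 and 7.29 in LEC and 8.8, 9.21 and 9.57 in BEC at E18.5. LEC and BEC stood apart at every age, by -1.44 ± 0.26, -1.18 ± 0.26 and -2.13 ± 0.26 (adjusted p = 0.00044, 0.002 and 3e-06).

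Irgm1, a regulator of the other immunity-related GTPases, read 6.25, 6.2 and 6.22 in LEC and 7.08, 7.1 and 7.05 in BEC at E14.5, 7.01, 7.08 and 7.03 in LEC and 7.93, 8.17 and 7.82 in BEC at E16.5, and 8.03, 8.55 and 8.71 in LEC and 9.49, 9.49 and 9.66 in BEC at E18.5. At the earlier ages the arrays of a group lay close together, and the differences were -0.86 ± 0.13, -0.94 ± 0.13 and -1.12 ± 0.13. Gbp7 read 6.12, 6.0 and 6.08 in LEC and 6.85, 6.78 and 7.01 in BEC at E14.5 (-0.81 ± 0.21, adjusted p = 0.0094), was not called at E16.5 (-0.18 ± 0.21), and read 8.32, 9.42 and 9.09 in LEC and 9.57, 9.72 and 10.22 in BEC at E18.5. The groups stood apart at E18.5 (-0.90 ± 0.21, adjusted p = 0.0028), and without LEC E18.5 replicate 1 the difference was -0.59 (0.016).

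Iigp1 and Gbp5 began dim and parted with age. Iigp1 read 2.88, 3.06 and 3.46 in LEC and 3.52, 3.04 and 3.24 in BEC at E14.5, all below the dim bound (-0.13 ± 0.28). At E16.5 it read 3.3, 3.14 and 3.66 in LEC, still below the bound, and 4.83, 4.8 and 4.07 in BEC (at least 1.31-fold lower in LEC, adjusted p = 0.0029), with 2 of 3 BEC arrays above the bound, and at E18.5 4.92, 5.7 and 6.2 in LEC and 8.02, 8.35 and 8.84 in BEC. The last gap, -2.8 ± 0.28 (adjusted p = 1.9e-07, 6.96-fold), was the largest of any member at any age. Gbp5 was below the bound on all arrays of both cell types at E14.5 and E16.5 and did not differ past the test (-0.09 ± 0.25 and -0.02 ± 0.25). At E18.5 it read 3.96, 4.67 and 4.69 in LEC and 5.43, 6.49 and 6.52 in BEC, which did not overlap (-1.71 ± 0.25, adjusted p = 2.8e-05).

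**Figure D3:**
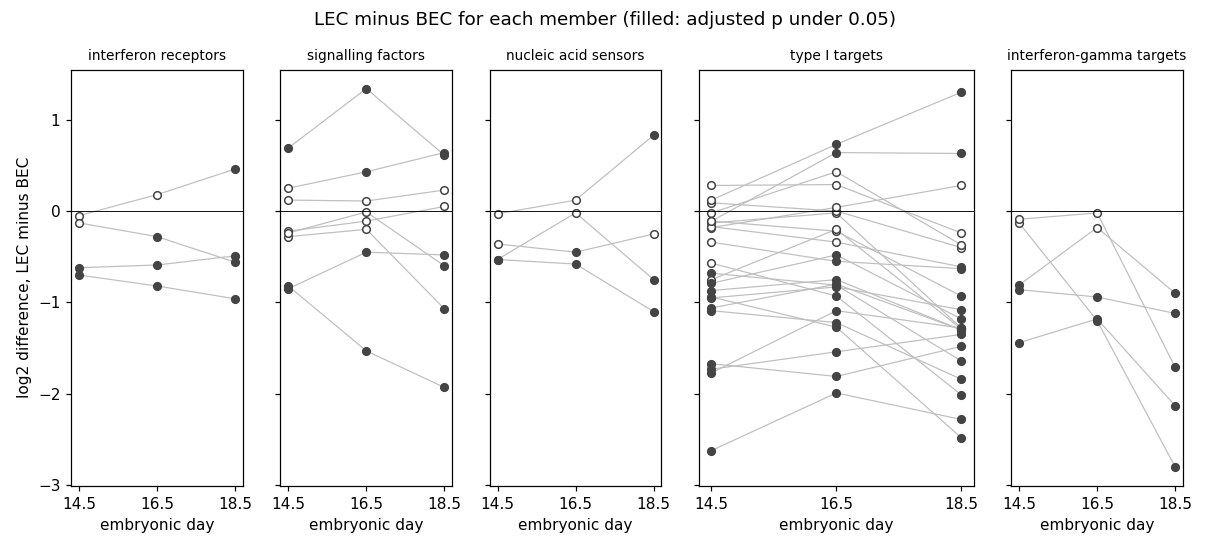
Log2 difference, LEC minus BEC, of each measured member at the 3 embryonic days, by role; each line joins 1 gene and filled points had an adjusted p under 0.05. The type I and interferon-gamma targets lie mostly below 0 and reach their lowest medians at E18.5 (-1.28 and -1.71), while the receptors stay between -0.96 and 0.46.

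The change with age was then followed within each cell type. From E14.5 to E16.5 fewer members were called, and none was called lower at the later age. In LEC 12 of 44 rose and 0 fell, against 8.07% and 5.72% of all genes (13.8% called in all), with a median change of 0.32 over the members and -0.03 over all genes. In BEC 12 rose and 0 fell, against 5.1% and 4.66% of all genes (9.76% in all), with a median of 0.25 and -0.05. The count in LEC was 20 when all E18.5 arrays were left out, which was tried after the data had been seen, and 7 without LEC E14.5 replicate 3. The count in BEC fell to between 5 and 7 without each E14.5 array in turn or without E16.5 replicate 1 or 2. In this step 9 of 12 macrophage markers rose in LEC (median 1.72), and in BEC 4 of 5 mural markers rose (1.23) and 4 of 5 LEC markers fell (-1.71). The median level per array of the mast cell markers in LEC was 8.51 to 9.47 at E14.5 and 10.57 to 10.66 at E16.5. In BEC it was 6.21 to 7.38 and then 7.57 to 7.94. The part of the cells with these markers was not tested.

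Both cell types had 8 calls in common, a pattern of 2.42% of all genes: Ifnar2, Ifngr1, Irf2, Parp9, Parp14, Samd9l, Irgm1 and Gbp7. Gbp7 changed by 1.38 ± 0.21 in LEC and 0.74 ± 0.21 in BEC, and Samd9l by 1.2 ± 0.28 in LEC and 1.01 ± 0.28 in BEC. Irgm1 changed by 0.82 ± 0.13 in LEC, with an adjusted p of 0.00043, and by 0.90 ± 0.13 in BEC, with an adjusted p of 4e-04, an increase that all 3 later arrays showed in each. Irf9 (0.65 ± 0.13), Stat2 (0.55 ± 0.17), Ifih1 (0.71 ± 0.22) and Rtp4 (0.91 ± 0.20) were called in LEC and not in BEC (5.53% of all genes). The converse held for Irf1 (0.86 ± 0.13), Eif2ak2 (0.45 ± 0.13), Ifi203 (0.90 ± 0.28) and Iigp1 (at least 1.31-fold), against 2.63% of all genes. Of these calls, those of Ifngr1, Stat2, Ifih1, Parp14 and Samd9l in LEC and of Irf2, Eif2ak2, Ifi203, Parp9, Parp14, Samd9l and Gbp7 in BEC were lost without at least 1 array of the ages compared (adjusted p up to 0.16 in LEC and 0.15 in BEC). For Irf1 alone was the difference between the cell types' changes itself called (-0.72 ± 0.19, adjusted p = 0.046), with a change of 0.14 ± 0.13 in LEC (adjusted p = 0.57) against 0.86 ± 0.13 in BEC (0.00046). Over all genes 2.63% were called in that test, 0.742% with the smaller and 1.89% with the larger change in LEC, and the call for Irf1 was lost in 14 of 29 alternatives, among them a common median and the mean of its 2 clusters.

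From E16.5 to E18.5 most interferon response genes rose in both cell types. In LEC 28 of 44 rose and 1 fell, against 15.9% and 18.5% of all genes (34.4% in all), with a median change of 0.81 over the members and 0.05 over all genes. In BEC 33 rose and 1, Irf8, fell, against 15.8% and 16.4% of all genes (32.3% in all), with medians of 1.15 and 0.09. With every array shifted to a common median the calls were 27 up and 2 down in LEC and 30 up and 1 down in BEC. After that shift the split of all genes was 1804 up and 4972 down in LEC, against 3170 and 3684 as deposited, and 1879 up and 4284 down in BEC, against 3159 and 3274. The median change of all genes was then -0.07 in LEC and -0.01 in BEC. For BEC between E14.5 and E16.5 the shift gave 1287 up and 650 down, against 1016 and 929, with 13 members up. In all, 24 members rose in both cell types, which 6.38% of all genes did.

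By role, the targets and sensors moved most. Of the 5 interferon-gamma targets, 4 rose in LEC and 5 in BEC, with medians of 1.47 and 2.24 as read (1.43 and 2.22 with dim readings set to the bound). Of the 23 type I targets, 16 rose in LEC and 20 in BEC, with medians of 0.98 and 1.31 (0.93 and 1.31 with the bound). Of the 4 sensors, 4 rose in LEC and 3 in BEC (0.83 and 0.97), of the 8 signalling factors 3 rose in LEC and 5 in BEC (0.22 and 0.70), and of the 4 receptors 1 rose in LEC and none in BEC (0.19 and 0.20).

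Iigp1, Ifit1 and Ifi203 rose strongly in both cell types, and their levels at E18.5 are given above. Iigp1 rose at least 2.69-fold in LEC, where it was below the dim bound at E16.5 (adjusted p = 1.1e-05), and by 3.84 ± 0.28 in BEC. Ifit1, below the dim bound at E16.5 in both, rose at least 3.6-fold in LEC (adjusted p = 1.4e-05) and at least 8.72-fold in BEC (3.7e-07), and all 3 arrays of E18.5 lay above all of E16.5 in each. Ifi203 changed by 1.66 ± 0.28 in LEC, with 6.78, 7.17 and 5.94 at E18.5 and 5.1, 5.05 and 4.75 at E16.5, and by 2.74 ± 0.28 in BEC, with 8.27, 8.42 and 9.24 at E18.5 and 5.8, 5.71 and 6.19 at E16.5. In that gene LEC E18.5 replicate 3 was the lowest of its group, though above every E16.5 array.

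Ifit3, which was not called between the cell types, rose in both, to 5.79, 6.32 and 6.37 at E18.5, against 4.36, 4.26 and 4.37 at E16.5, in LEC and to 5.88, 6.51 and 7.29, against 4.55, 4.06 and 4.37, in BEC. Its changes were 1.83 ± 0.24 (adjusted p = 1.9e-05) and 2.23 ± 0.24 (adjusted p = 4e-06). Rtp4 changed by 2.13 ± 0.20 in LEC and 2.43 ± 0.20 in BEC, Oasl2 by 1.7 ± 0.21 and 2.53 ± 0.21, and Usp18 by 1.4 ± 0.26 and 2.5 ± 0.26. Usp18 read 5.07, 5.09 and 5.03 in LEC and 5.31, 5.12 and 5.36 in BEC at E16.5, so that the groups of the later age lay wholly above in each. Rsad2 changed by 1.39 ± 0.15 in LEC and 1.58 ± 0.15 in BEC, Xaf1 by 1.68 ± 0.18 and 1.35 ± 0.18, Samd9l by 1.5 ± 0.28 and 1.31 ± 0.28, and Irgm1 by 1.39 ± 0.13 and 1.57 ± 0.13, in the same order.

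Among the factors and sensors, Irf7 changed by 1.01 ± 0.23 in LEC and 1.88 ± 0.23 in BEC, Irf1 by 0.87 ± 0.13 and 1.26 ± 0.13, Irf9 by 0.85 ± 0.13 and 0.88 ± 0.13, Ifih1 by 1.14 ± 0.22 and 1.87 ± 0.22, and Dhx58 by 0.67 ± 0.15 and 1.19 ± 0.15. Zbp1 rose in LEC (0.70 ± 0.14, adjusted p = 0.00084), with 4.88, 4.45 and 4.78 at E16.5, and not past the test in BEC (0.00 ± 0.14, adjusted p = 0.98). Oas2 (0.98 ± 0.20), Ifnar2 and Mx1 were likewise called in LEC and not in BEC, Mx1 on readings below the dim bound at both ages. With Zbp1 these were 4 of 44 members, near the 9.3% of all genes with this pattern. The difference between the cell types' changes was called for none of them. Called in BEC and not in LEC were 9 of 44 members, Irf5, Stat2, Ifi35, Isg20, Oasl1, Bst2, Parp9, Trim21 and Gbp5. Over all genes 9.22% showed that pattern and 9.3% the converse. Leaving out 1 array lost the late calls of Ifit2, Mx1, Dtx3l and Ifngr2 in LEC (adjusted p up to 0.12) and of Irf5, Ifi35 and Trim21 in BEC (up to 0.21, for Irf5 without BEC E16.5 replicate 2, with a change of 0.34 against 0.52). Another scaling alone also lost some of them. A common median lost Dtx3l in LEC (0.11) and Irf5 (0.093), Ifi35 (0.11) and Trim21 (0.078) in BEC. Quantile normalization lost Mx1 in LEC (0.085) and Irf5 in BEC (0.12). Keratinocyte markers rose in the same step, 4 of 4 in each cell type, with medians of 2.30 in LEC and 1.09 in BEC, and mural markers rose in BEC, 5 of 5. The median level per array of the fibroblast markers in LEC was 6.67 to 7.02 at E16.5 and 7.7 to 8.42 at E18.5. In BEC it was 6.74 to 7.32 and then 6.15 to 7.1. The part of such cells was not tested.

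**Figure D4:**
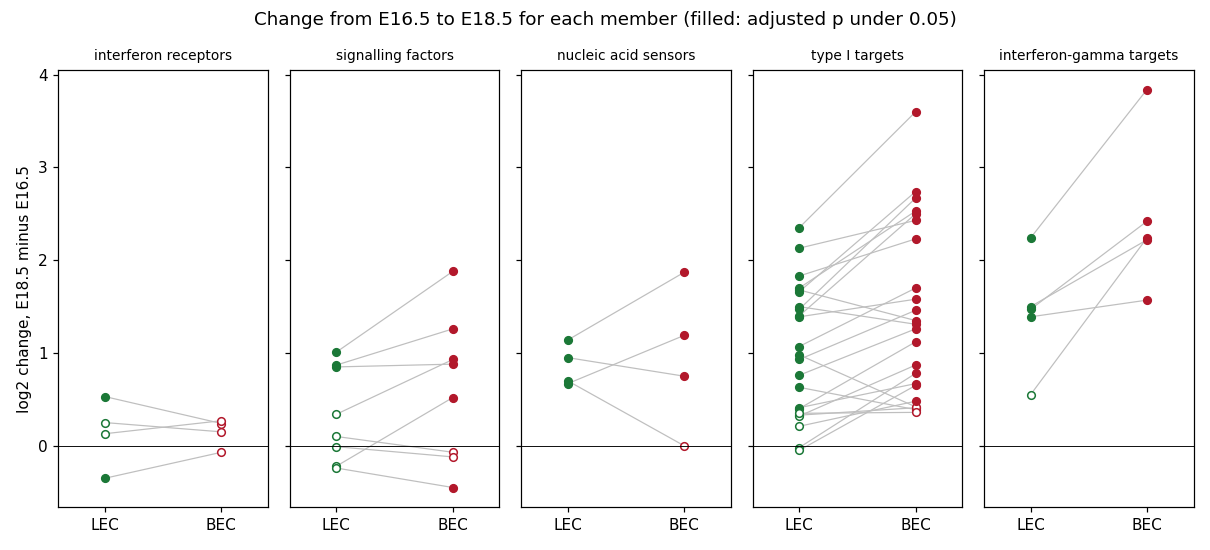
Log2 change from E16.5 to E18.5 of each measured member in LEC (green) and in BEC (red), by role; each line joins 1 gene and filled points had an adjusted p under 0.05. Most targets lie above 0 in both cell types, and the largest changes as read are those of Ifit1 in LEC (2.35) and Iigp1 in BEC (3.84). At E16.5 all arrays lay below the dim bound for Ifit1, Mx1, Mx2, Iigp1 and Gbp5 in LEC and for Ifit1, Mx1, Epsti1 and Gbp5 in BEC.

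Whether the late changes differed between LEC and BEC was tested directly. As read, the change in LEC minus that in BEC was below 0 for 33 of 44 members, with a median of -0.40 over the members and -0.03 over all genes. The share of all genes below 0 was not counted. Among the 33 was Ifngr2, which fell in LEC by more than in BEC. The test called 4 members, all with the smaller change in LEC as read, while it called 3.65% of all genes, 2.12% in that direction and 1.53% in the other. They were the interferon-gamma targets Gbp5 (-1.69 ± 0.36, adjusted p = 0.013) and Iigp1 (-1.6 ± 0.40, 0.031) and the type I targets Mx2 (-1.21 ± 0.31, 0.039) and Bst2 (-0.70 ± 0.19, 0.047). In LEC at E16.5 Iigp1 and Mx2 lay below the dim bound, so that their changes in LEC are known only as at least 2.69-fold and 1.85-fold, and Gbp5 lay below it at E16.5 in both cell types. For these 3 genes neither the size nor the direction of the difference between the changes is therefore settled, since their changes in LEC have no upper bound. Bst2 lay above the bound on every array.

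Gbp5 read 3.96, 4.67 and 4.69 at E18.5 and 4.15, 3.55 and 3.96 at E16.5 in LEC, a change of 0.55 ± 0.25 as read that was not called (adjusted p = 0.1). In BEC it read 5.43, 6.49 and 6.52 at E18.5 and 3.81, 3.78 and 4.14 at E16.5, a rise of at least 3.91-fold (adjusted p = 6.1e-06). Only the BEC groups were apart, and the call on the difference held in all 28 alternatives run. Bst2 changed by -0.05 ± 0.13 in LEC (adjusted p = 0.78), against 0.65 ± 0.13 in BEC (adjusted p = 0.0016). The calls were less firm for Iigp1, Mx2 and Bst2, which lost theirs in 8, 9 and 16 of 28 alternatives. The number of members called was 11 without BEC E18.5 replicate 1 and 1 without LEC E16.5 replicate 1. It was 2 without LEC E16.5 replicate 3, LEC E18.5 replicate 1, BEC E16.5 replicate 2 or 3, or BEC E18.5 replicate 2 or 3, left out 1 at a time.

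At E18.5 the arrays numbered 1 were low for most members in both cell types: 7 of 44 members in LEC and 5 of 44 in BEC lay above their group mean there, with a median deviation of -0.25 in LEC and -0.19 in BEC. Of the interferon-gamma targets, 0 of 5 lay above the mean on either array (medians -0.62 in LEC and -0.38 in BEC), and of the type I targets 2 of 23 in LEC and 1 of 23 in BEC (-0.28 and -0.26). In LEC, Gbp7 read 8.32, 9.42 and 9.09 and Iigp1 4.92, 5.7 and 6.2 over replicates 1 to 3 at E18.5, and in BEC Gbp5 read 5.43, 6.49 and 6.52 and Usp18 7.05, 8.06 and 8.17. In these 4 examples the first value is the lowest of its group. Without both arrays numbered 1 at E18.5, also tried after the data had been seen, 34 members rose and 1 fell from E16.5 to E18.5 in LEC, 33 rose and 1 fell in BEC, 30 were lower and 6 higher in LEC than in BEC at E18.5, and the test of the difference between the late changes called 11 (10 with the smaller change in LEC).

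**Figure D5:**
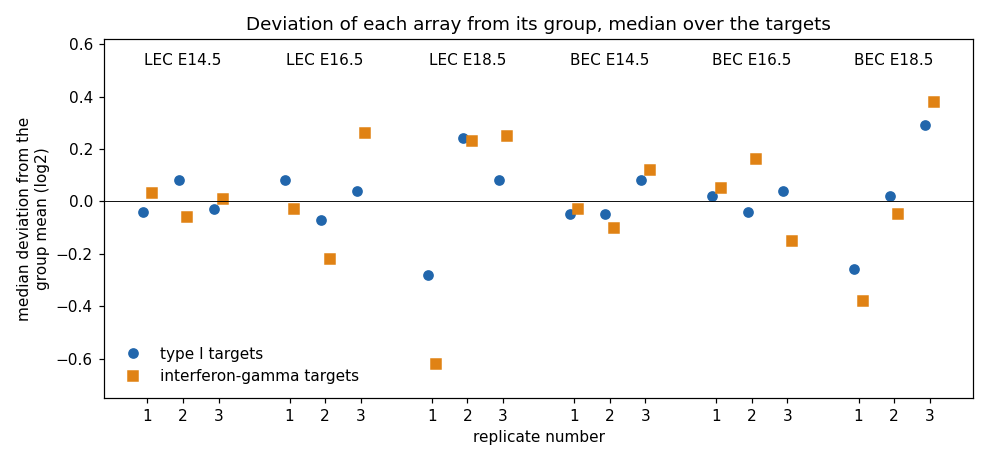
Median deviation (log2) of each array from its group mean over the type I targets (circles) and the interferon-gamma targets (squares), by group and replicate number. At E18.5 the arrays numbered 1 are the lowest of their groups, at -0.28 and -0.62 in LEC and -0.26 and -0.38 in BEC, and no other array is below -0.22.

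Genes of the pathway outside the 49 were read from lists drawn up for this purpose. Of 16 interferon genes measured, 0 were called between LEC and BEC at E14.5 or E16.5 and 1, Ifna5, was lower in LEC at E18.5 (-0.51 ± 0.17, adjusted p = 0.031). Their median level per array was 4.04 to 4.24 in LEC and 3.88 to 4.39 in BEC over all ages, near the dim bound. From E16.5 to E18.5, 3 of 16 (18.8%) were called higher in each cell type, near the 15.9% of all genes in LEC and 15.8% in BEC.

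The lists that follow are set against 15.9% of all genes called lower and 14.6% called higher in LEC at E18.5, and 15.9% in LEC and 15.8% in BEC that rose from E16.5 to E18.5. Of 31 further type I targets, 17 were lower and 2 higher in LEC at E18.5, with a median of -0.55, and 22 rose in LEC and 24 in BEC from E16.5 to E18.5. Ly6e read 8.02, 8.39 and 8.6 in LEC and 10.88, 11.18 and 11.2 in BEC at E18.5, groups far apart (-2.75 ± 0.15), and Slfn5 read 7.63, 8.59 and 8.1 in LEC and 10.11, 10.07 and 10.48 in BEC (-2.11 ± 0.19). Of 16 further interferon-gamma targets, 7 were lower and 1 higher in LEC at E18.5, with a median of -0.32, and 8 rose in LEC and 12 in BEC. Cxcl10, a chemokine for T cells, read 6.96, 7.31 and 6.09 in LEC and 9.25, 9.65 and 9.12 in BEC at E18.5, against 5.79, 4.95 and 5.65 in LEC and 6.05, 6.03 and 6.04 in BEC at E16.5. It was lower in LEC at E18.5 (-2.55 ± 0.26, adjusted p = 2.4e-07), and its late change was smaller in LEC (-1.98 ± 0.37, adjusted p = 0.0053). Gbp4 read 5.82, 6.66 and 6.44 in LEC and 8.95, 8.85 and 9.36 in BEC at E18.5 (-2.75 ± 0.20), without overlap.

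Of 13 kinases, receptors of related cytokines and inhibitors around the JAK-STAT core, 5 were lower and 3 higher in LEC at E18.5 (15.9% and 14.6% of all genes). Jak2, the kinase of the interferon-gamma receptor, was lower (-1.14 ± 0.12), and so was Socs3, an inhibitor of STAT3 signalling (-1.4 ± 0.18). The phosphatases Ptpn6, which is abundant in blood cells, and Ptpn2 were higher in LEC (2.25 ± 0.15 and 0.85 ± 0.14). Of 15 further sensing genes, 7 were lower and 4 higher in LEC at E18.5, with Ddx58, the RNA sensor RIG-I, lower (-1.03 ± 0.15) and the endosomal receptor Tlr7 higher (1.94 ± 0.25).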

How the data were processed

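RNA of LEC and BEC was measured on 18 arrays, 3 in each of 6 groups. The deposited values are log2 expression levels that the authors obtained by RMA in oligo 1.54.1 (background correction, quantile normalization and probe summary), per the submitters' processing notes. Whether all arrays were normalized together is not given in the sources used here. Arrays give no read depth, and their number limits the precision.

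Of 35556 transcript clusters, 21789 had 1 gene symbol in the platform annotation and 1621 had several, which were not used. The brightest cluster of a gene was kept, giving 19938 genes, dim ones included. A limma 3.58.1 model of the 6 group means was fitted across the 18 arrays (R 4.3.3, eBayes without trend, 12 residual and 6.11 prior degrees of freedom). There were 10 comparisons, with two-sided p-values adjusted by Benjamini-Hochberg over all genes within each. The procedure was tested on simulated data.

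The members, the roles, the pathway lists and the marker lists were chosen with earlier results of these data known, so that their counts and medians are descriptions and carry no test over a list. Values per array were given for the receptors and, within each role and comparison, for up to 6 called members whose groups did not overlap, largest difference first. Members named beside these (the ones higher in LEC, Ifit3 and those that overlap) were chosen after their values were seen, as were the pathway genes, of which at most 5 per list are named. Promoters and their builds are from RefSeq.

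The design text describes matching litters, while the labels do not say that a replicate number marks 1 litter. Deviations of same-numbered LEC and BEC arrays from their group means correlated at -0.11 to 0.13 over all genes and at -0.27 to 0.53 over the members, highest for the E18.5 arrays numbered 1. Since the labels do not tie the number to a litter and the correlations over all genes were at most 0.13, the arrays were not paired. Alternatives were another scaling, a filter on dim genes, the mean of a gene's clusters, only the groups compared, a replicate block, an intensity trend, array weights and leaving out each array. Lists of markers covered LEC, BEC, all endothelium, macrophages, lymphocytes and leukocytes, plasmacytoid and dendritic cells, mast cells, mural cells, fibroblasts, erythroid cells and keratinocytes.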

Additional observations from a re-analysis of the deposited data

Results flagged for a closer look

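For 5 results the change between ages differed between LEC and BEC by the test of that difference (limma, Benjamini-Hochberg over all genes). From E14.5 to E16.5 the change of Irf1 was smaller in LEC (-0.72 ± 0.19 SE, adjusted p = 0.046). From E16.5 to E18.5 the change as read was smaller in LEC for Gbp5 (-1.69 ± 0.36, adjusted p = 0.013), Iigp1 (-1.60 ± 0.40, adjusted p = 0.031), Mx2 (-1.21 ± 0.31, adjusted p = 0.039) and Bst2 (-0.70 ± 0.19, adjusted p = 0.047). Gbp5 in both cell types and Iigp1 and Mx2 in LEC lay below the dim bound at E16.5, so that neither the size nor the direction of these 3 differences is settled. The test called 2.63% of all genes in the earlier step and 3.65% in the later one. No rule that flags single outlying arrays was applied to groups of 3. Deviations of arrays from their group means and fits that leave out 1 array are given separately.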

How the results depend on the processing

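The counts of members called between LEC and BEC stayed within 1.5 times their values under all alternatives run, and leaving out 1 array gave 36 to 38 over the mean of the ages, 17 to 22 at E14.5, 23 to 27 at E16.5 and 33 to 38 at E18.5. So did the late step, with 26 to 34 in LEC and 31 to 34 in BEC. For the early step leaving out 1 array gave 7 to 16 in LEC and 5 to 14 in BEC (12 each with all arrays), and in LEC the count was 21 with array weights and 20 without the E18.5 arrays. The difference between the early changes, 1 call, gave 0 with a common median or the mean of a gene's clusters, 3 with only the groups compared, with array weights or without the E18.5 arrays, 2 without both arrays numbered 1 at E18.5, and 0 to 1 leaving out 1 array. The difference between the late changes, 4 calls, gave 8 with quantile normalization, 1 with only the groups compared, 2 with array weights, 11 without both arrays numbered 1 at E18.5, and 1 to 11 leaving out 1 array. With the replicate number within an age as a fixed replicate block it gave 7, and that block, run for the comparisons between LEC and BEC, moved no other count by more than 1.5 times; as a random replicate block it had a consensus correlation of 0.015 and left 4. The fits without the E18.5 arrays and without both arrays numbered 1 were chosen after seeing the data. The causes were not tested. Of 214 member calls over the 10 comparisons, 174 held under every alternative and 40 were lost under at least 1, and 0 differences past the test changed sign. Signal is the limit where all arrays of a group lay below the dim bound: Mx1 in all groups, Ifit1 and Gbp5 at E14.5 and E16.5, Mx2 and Iigp1 in LEC at those ages, Iigp1 and Ifit3 in BEC at E14.5, and Epsti1 in BEC at E16.5.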
